A study of Mus musculus with 14 samples.

Results

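The Id proteins (Id1 to Id4), the E proteins (Tcf3, Tcf4 and Tcf12), the Twist pair (Twist1 and Twist2) and musculin (Msc) are 10 helix-loop-helix (HLH) factors, chosen here by gene name from the 24016 transcripts of a polyA RNA-seq table. They were measured in C2C12 cells, established mouse myoblasts that form myotubes when growth medium is replaced by medium with little horse serum. The cells carried either control siRNA (siCtrl) or a pool of siRNAs against the zinc-finger factor Klf5 (siKlf5), and RNA was taken on days 0, 1, 2 and 3 of differentiation. Each of the 8 combinations of siRNA and day was 1 library with no replicate, all from the same cell line, so the days were the only repeats of the siRNA comparison and the siRNAs the only repeats of the day comparisons. Day 0 was the start of differentiation, and every library had been transfected with 1 of the siRNAs. All 10 genes were in the table. Of these, 9 had a mean of at least 1 FPKM over the 8 libraries and were tested, among 14312 transcripts in all. FPKM here means reads per kilobase of exon per 10000000 reads of the library, not the usual per-million scale. Twist1, with a mean of 0.470 FPKM, was not tested. These genes, and the other gene lists used below, were chosen with earlier results of these data known. Their counts are therefore a description, and the shares of all transcripts beside them are no test of the lists. In mm9, the build of the table, Id1 lies at chr2:152561987-152563146 (plus strand), Id2 at chr12:25778664-25780957 (minus), Id3 at chr4:135699737-135701307 (plus) and Twist2 at chr1:93698054-93744604 (plus), and values were summed over the exons of 1 transcript per gene.

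Myogenic basic HLH factors such as Myod1 and Myog bind DNA as dimers with an E protein, and they recognise the short sequence called an E-box. Id proteins have the HLH surface but no DNA-binding region, so they take up E proteins in dimers that cannot bind DNA, and they are classic targets of bone morphogenetic protein (BMP) signalling. Twist proteins and musculin bind DNA but also occupy E proteins, and they are known as repressors of muscle gene activation in myoblasts.

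Promoter sequence was held in the RefSeq table (GRCm38.p6) for 7 of the 10 genes, Id2, Id3, Id4, Tcf3, Tcf12, Twist1 and Twist2. The 250 bases before the start of Id2 and of Id3 are printed, because both genes fell in differentiation while, on days 1 to 3, Id2 was below and Id3 above control in siKlf5 cells, although both were below control on day 0 and neither passed the siRNA test. Each is given 5′ to 3′ on the strand of its gene, Id2 from chr12:25096093-25096342 on the minus strand and Id3 from chr4:136143572-136143821 on the plus strand. Capitals mark matches to the E-box CANNTG and to CACCC on either strand (GGGTG on the printed strand), the kind of box that Krüppel-like factors bind.
Id2: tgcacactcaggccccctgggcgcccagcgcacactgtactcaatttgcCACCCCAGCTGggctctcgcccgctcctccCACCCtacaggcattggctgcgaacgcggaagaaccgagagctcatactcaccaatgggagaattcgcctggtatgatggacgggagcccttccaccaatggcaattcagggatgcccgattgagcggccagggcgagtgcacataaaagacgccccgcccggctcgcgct
Id3: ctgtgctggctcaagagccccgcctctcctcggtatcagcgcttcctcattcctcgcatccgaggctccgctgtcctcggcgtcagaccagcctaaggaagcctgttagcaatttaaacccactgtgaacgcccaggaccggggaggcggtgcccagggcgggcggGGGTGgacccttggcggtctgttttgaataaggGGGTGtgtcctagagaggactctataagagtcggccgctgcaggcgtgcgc
The Id2 window held 1 E-box, CAGCTG, directly after 1 of its 2 CACCC boxes and not overlapping it. The Id3 window held 2 CACCC matches, both as GGGTG, and no E-box. Among 32851 windows of the same length from all genes, 66.2% held an E-box and 52.0% held CACCC, so both kinds of match were common. Another motif, the BMP-related GGCGCC searched on both strands, matched once in Id2 and once in Id4, against 9.59% of all windows. The Tcf3 window had 1 E-box and 2 CACCC matches, 2 of the 3 Tcf12 start sites had 1 E-box each, and the Twist1 and Twist2 windows had a match to none of the 3 motifs.

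The libraries held 7850497 (siCtrl day 1) to 20301506 (siCtrl day 2) reads in exons, and both day 1 libraries were the shallowest. Klf5, the targeted gene, stood at 224, 381, 614 and 933 FPKM on days 0 to 3 in siCtrl cells and at 35.1, 159.6, 192 and 211 FPKM in siKlf5 cells, lower in siKlf5 on 4 of 4 days (log2 difference -1.94 ± 0.20 SE, limma adjusted p = 0.0244). All 7 skeletal muscle markers were expressed, with summed levels of 2735 to 13103 FPKM, lowest in the day 0 libraries. Of 15 markers of other cell types, 12 had a mean below 1 FPKM and 4 of these (Plin1, Ibsp, Epcam and Krt18) had no read in any library. Their summed level, nearly all from Tubb3, ran from 291 to 717 FPKM and was lowest on day 3 with either siRNA. Its part in the changes given here was not tested. In bulk RNA, fewer cells of a type and less RNA per cell cannot be told apart.

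Id1, Id2 and Id3 fell within the first day of differentiation and stayed below their day 0 level with either siRNA. Id1 stood at 271, 40.3, 101 and 93.4 FPKM on days 0, 1, 2 and 3 in siCtrl cells and at 192, 51.6, 108 and 103 FPKM in siKlf5 cells. The day 0 libraries were the highest and the day 1 libraries the lowest under each siRNA, and the 2 groups of libraries did not overlap. Against day 0, Id1 was lower by 2.32 ± 0.21 (SE) on the log2 scale on day 1 (log2 change -2.32, limma adjusted p = 0.000486), with changes of -1.12 on day 2 (adjusted p = 0.00747) and -1.22 on day 3 (adjusted p = 0.00383). From day 1 to day 2 Id1 was higher by 1.33 on the log2 scale in siCtrl cells (95% counting interval 0.25 to 2.61) and by 1.07 in siKlf5 cells (0.04 to 2.22), a step that was not tested.

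Id2, like Id1 a small nuclear HLH protein, stood at 208, 64.6, 86.2 and 74.3 FPKM in siCtrl cells and at 139 (day 0), 52.1, 68.2 and 49.4 FPKM in siKlf5 cells. Its changes from day 0 were -1.55 ± 0.17 on day 1 (adjusted p = 0.00103), -1.14 ± 0.17 on day 2 (adjusted p = 0.00253) and -1.49 ± 0.17 on day 3 (adjusted p = 0.000515). Every siKlf5 library lay below the siCtrl library of the same day, and each day 0 library lay above all 6 later libraries. Id3 had the highest level of the family, with 424, 76.5, 114 and 124 FPKM in siCtrl cells and 329, 146, 179 and 173 FPKM in siKlf5 cells. Its changes were -1.82 ± 0.27, -1.39 ± 0.27 and -1.35 ± 0.27 on days 1, 2 and 3 (adjusted p = 0.00385, 0.00860 and 0.00713). The fall of Id3 to day 1 was 5.54-fold in siCtrl cells and 2.26-fold in siKlf5 cells. The call for Id3 on day 1 was lost when day 2 or day 3 was left out of the fit (adjusted p = 0.0539 and 0.0513), with the same log2 change.

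Id4 was near the limit of detection. It had 7 reads in siCtrl cells and 16 in siKlf5 cells on day 0, 12 in siCtrl cells on day 3, and 0 in the other 5 libraries, which corresponds to at most 5.41 FPKM. No day comparison passed the test for Id4 (adjusted p = 0.176, 0.153 and 0.448). A330033J07Rik overlaps Id4 on the opposite strand, had a mean of 0.0744 FPKM and was counted without regard to strand, so reads of the pair cannot be told apart.

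**Figure D1:**
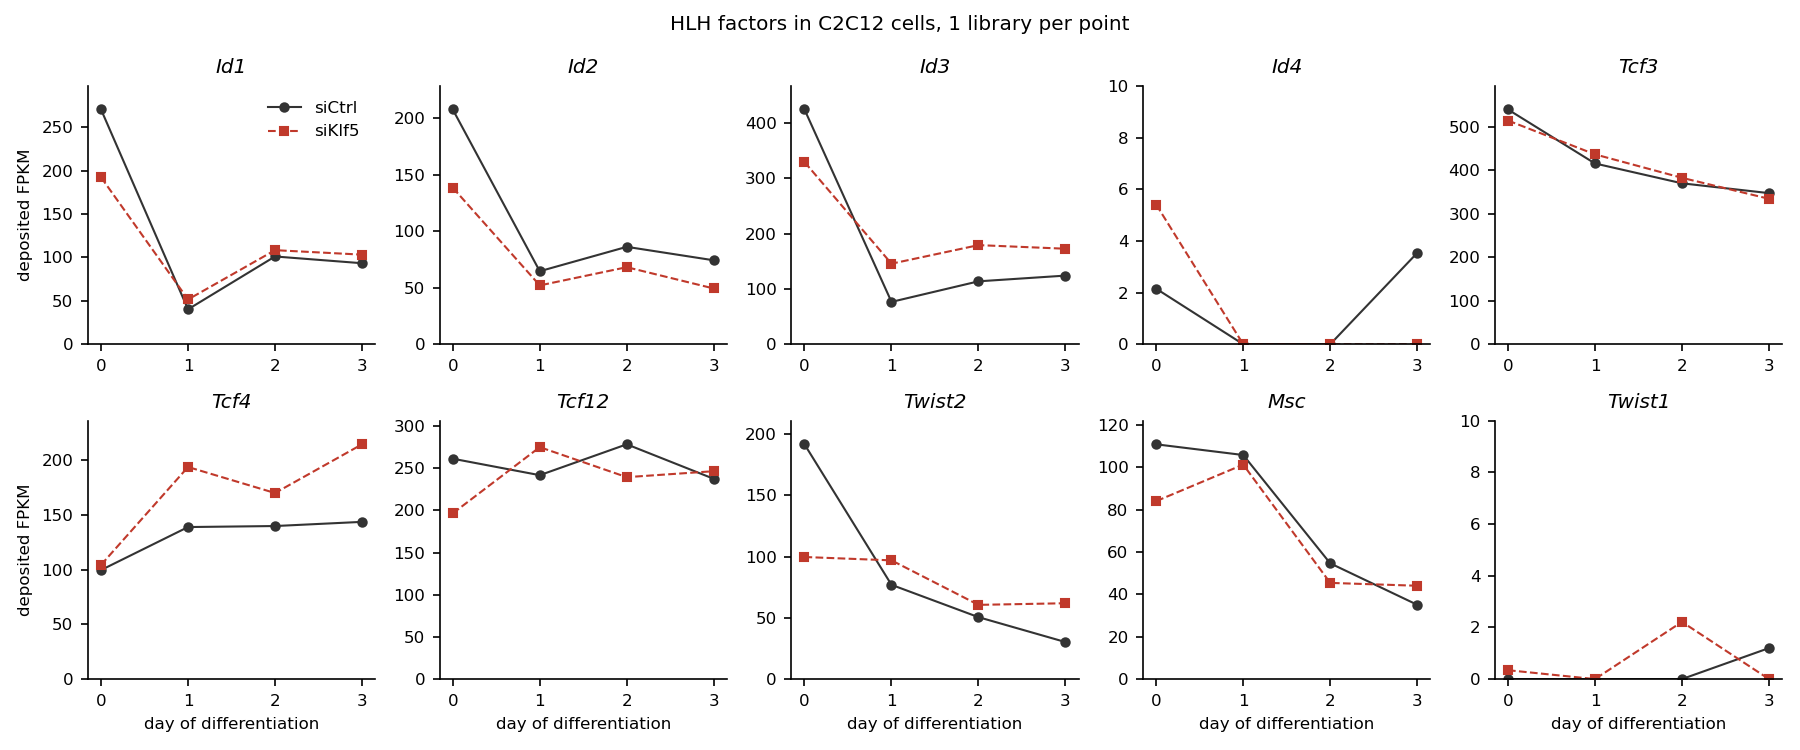
Level of each of the 10 HLH genes (vertical axis, deposited FPKM from 0) by day of differentiation (horizontal axis), with 1 library per point for siCtrl (circles, solid line) and siKlf5 (squares, dashed line). Id1, Id2 and Id3 were highest on day 0 and lower in all later libraries of the same siRNA, while Id4 and Twist1 stayed below 6 FPKM.

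The 3 E proteins took different courses. Tcf3 was the most abundant of the 10 genes in each of the 8 libraries, at 540.0, 416, 370.2 and 348 FPKM in siCtrl cells and at 515, 437, 383 and 335 FPKM in siKlf5 cells. It went down with each day under either siRNA, and the siRNA groups overlapped closely. Its change was -0.31 ± 0.10 on day 1, which did not pass (adjusted p = 0.0735), and it fell by 0.49 ± 0.10 on day 2 (log2 change -0.49, adjusted p = 0.0111) and by 0.63 ± 0.10 on day 3 (log2 change -0.63, adjusted p = 0.00257).

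Tcf4 rose as Tcf3 fell. It stood at 99.5, 139 (day 1), 139.7 and 144 FPKM in siCtrl cells and at 104, 194, 169.9 and 214 FPKM in siKlf5 cells. Both day 0 libraries lay below all 6 later ones, and the siKlf5 library was the higher of the pair on each day. The changes from day 0 were 0.69 ± 0.15 on day 1 (adjusted p = 0.0209), 0.60 ± 0.15 on day 2 (adjusted p = 0.0273) and 0.78 ± 0.15 on day 3 (adjusted p = 0.00687). Leaving out day 2 or day 3 ended the day 1 call (adjusted p = 0.0841 and 0.0583), and leaving out day 1 or day 3 ended the day 2 call (0.0523 and 0.0606), while the day 3 call held without day 1 (0.0212) and without day 2 (0.0396).

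Tcf12, also called HEB, gave values of 261, 242, 278 and 237 FPKM in siCtrl cells and of 197, 275, 239 and 246 FPKM in siKlf5 cells. Its highest library was only 1.42-fold above its lowest, and no day comparison passed (log2 changes 0.19, 0.19 and 0.09, adjusted p = 0.465, 0.434 and 0.687). The interval of its day 3 change ran from -0.26 to 0.45. By share of the summed E-protein FPKM, Tcf3 went from 59.9% on day 0 to 47.7% on day 3 in siCtrl cells and from 63.1% to 42.1% in siKlf5 cells. The Tcf4 share went from 11.1% to 19.7% in siCtrl cells and from 12.8% to 26.9% in siKlf5 cells.

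On day 1 Twist2 and Msc stood at a higher share of their day 0 level than Id1, Id2 and Id3 with either siRNA. For Twist2 in siCtrl cells the gap was small, 40.15% of day 0 against 31.1% for Id2. By day 3 Twist2 was the lower there, at 15.8% against 29.2% for Id3. These differences in timing were not tested. Twist2 stood at 192, 76.9, 50.5 and 30.2 FPKM on days 0 to 3 in siCtrl cells and at 99.6, 96.9, 60.6 and 61.9 FPKM in siKlf5 cells. The siCtrl cells held both the highest and the lowest of the 8 values, 6.34-fold apart on days 0 and 3, whereas in siKlf5 cells the same days were 1.61-fold apart. Its change from day 0 was -0.68 ± 0.39 on day 1 (adjusted p = 0.286), -1.32 ± 0.39 on day 2 (adjusted p = 0.0454) and -1.67 ± 0.39 on day 3 (adjusted p = 0.0146). The day 3 call was lost without day 1 or without day 2 (adjusted p = 0.0573 and 0.0862), and the day 2 call without day 1 or without day 3 (0.116 and 0.0848).

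Msc, which encodes musculin, had 111, 106, 54.6 and 35.1 FPKM in siCtrl cells and 84.0, 101, 45.4 and 44.1 FPKM in siKlf5 cells. The day 0 and day 1 libraries lay above the day 2 and day 3 libraries without overlap. The day 1 change was 0.10 ± 0.22 (adjusted p = 0.810), and Msc then fell by 0.95 ± 0.22 on day 2 (log2 change -0.95, adjusted p = 0.0179) and by 1.29 ± 0.22 on day 3 (log2 change -1.29, adjusted p = 0.00350). Twist1 had 4 reads in siCtrl cells on day 3, 1 read in siKlf5 cells on day 0 and 7 reads in siKlf5 cells on day 2, with 0 in the other 5 libraries, so of the Twist pair it was Twist2 that these cells expressed at a measurable level.

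On day 1, 3 of the 9 tested genes were called lower and 1 higher, where 9.93% of all 14312 transcripts were called lower and 6.82% higher (16.7% either way). On day 2, 6 were lower and 1 higher, against 11.6% lower and 11.5% higher among all transcripts (23.1% either way). On day 3 the same counts were 6 lower and 1 higher, against 17.6% and 12.8% (30.4% either way). The called genes on days 2 and 3 were Id1, Id2, Id3, Tcf3, Twist2 and Msc (lower) and Tcf4 (higher). The median log2 change of the 4 Id genes on day 3 was -1.42 and that of the 3 E-protein genes 0.09, where the median of all transcripts was -0.09. The 3 day comparisons share the day 0 libraries, so they are not separate observations. Because the genes were chosen with earlier results known, the shares of all transcripts are no test of these counts. With transcripts below 1 FPKM kept in, 2 of the genes passed on each day, Id1 and Id2 on day 1 and Id2 and Tcf3 on days 2 and 3. Calls among all transcripts then fell too, from 2397, 3307 and 4347 to 653, 1206 and 2161 on days 1, 2 and 3.

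**Figure D2:**
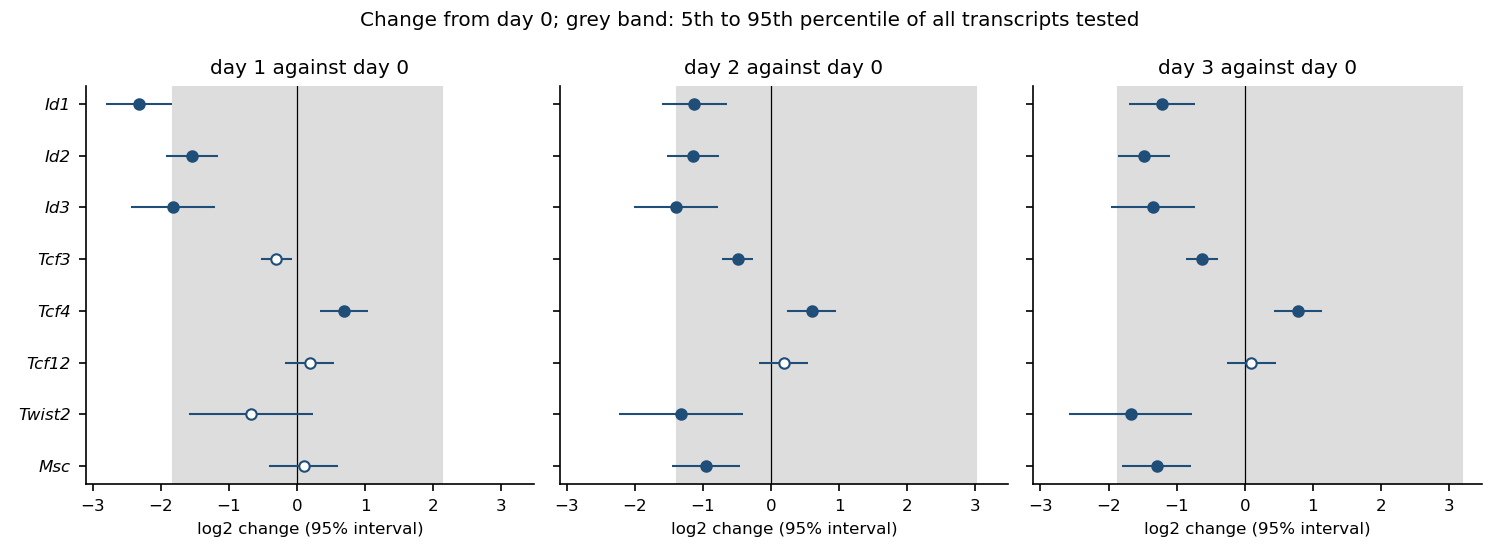
Log2 change from day 0 (horizontal axis, with 95% intervals from limma) for 8 HLH genes on days 1, 2 and 3, with filled points for an adjusted p under 0.05 and a grey band for the 5th to 95th percentile of all 14312 transcripts tested. Id1 lay outside the band on day 1 at -2.32. Id3 was at its edge on day 2 (-1.388, band from -1.385), and Tcf4 was to the right of 0 on all 3 days.

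Summed by family, the Id level dropped while the E-protein level changed less, though it fell with each day in siCtrl cells. The Id sum was 905, 181, 301 and 295 FPKM on days 0 to 3 in siCtrl cells, and the E-protein sum was 901, 796, 788 and 729 FPKM. In siKlf5 cells the Id sum was 666, 249, 356 and 325 FPKM and the E-protein sum 815, 905, 792 and 795 FPKM. The Id level per unit of E-protein level therefore went from 1.00 on day 0 to 0.228, 0.382 and 0.405 in siCtrl cells and from 0.816 to 0.275, 0.449 and 0.409 in siKlf5 cells. These are transcript levels per length, not amounts of protein. The sum of Twist1, Twist2 and Msc went from 302 to 66.5 FPKM in siCtrl cells and from 184 to 106 FPKM in siKlf5 cells between days 0 and 3.

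**Figure D3:**
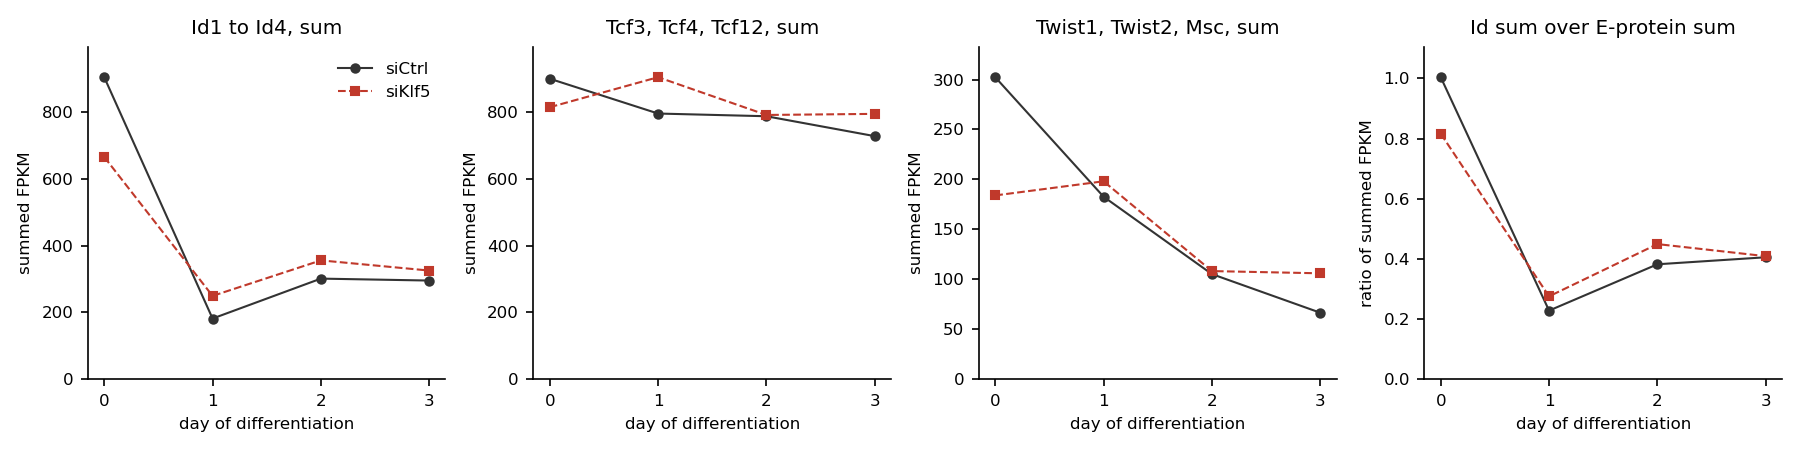
Summed FPKM of the Id genes, the E-protein genes and Twist1, Twist2 and Msc, and the ratio of the Id sum to the E-protein sum (vertical axes from 0), by day of differentiation for siCtrl (circles) and siKlf5 (squares), 1 library per point. The ratio was 1.00 and 0.816 on day 0 and between 0.228 and 0.449 in the 6 later libraries.

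The siRNA comparison asked which of these genes Klf5 knockdown moved over the course of differentiation, with the day as a block. None of the 9 tested HLH genes passed, at a limma adjusted p under 0.05, where 0.0629% of all transcripts did (9 of 14312, 0.00699% higher and 0.0559% lower, with 1374 at an unadjusted p under 0.05). Among the 9 genes, 2 had an unadjusted p under 0.05. Id2 was lower in siKlf5 cells on 4 of 4 days, with a mean log2 difference of -0.46 ± 0.12 (interval -0.73 to -0.19, adjusted p = 0.304). Tcf4 was higher on 4 of 4 days, with a difference of 0.35 ± 0.11 (interval 0.10 to 0.60, adjusted p = 0.372). How many of all transcripts kept 1 direction on all 4 days was not counted, so that agreement is only a description.

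For the other genes the interval of the mean difference took in 0. It ran from -0.01 to 0.86 for Id3, from -0.31 to 0.37 for Id1, from -0.16 to 0.16 for Tcf3 and from -0.35 to 0.16 for Tcf12. For Twist2 it ran from -0.47 to 0.81 and for Msc from -0.46 to 0.26. Tcf3 thus had the narrowest interval, and a mean difference of more than 0.16 on the log2 scale in either direction lay outside it. The Id4 interval, -4.75 to 2.80, carried no usable limit. Without the low-level filter, or without any single day, no transcript of the table passed this test, Klf5 included.

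Day by day, siKlf5 was set against siCtrl with no test, since each side was 1 library, and intervals cover counting error only. On day 0, before differentiation, 7 of the 8 expressed HLH genes were lower in siKlf5 cells, with a median log2 ratio of -0.41 where the median of all transcripts was 0.00. On days 1, 2 and 3 the median of the 8 genes was 0.26, 0.07 and 0.24, against 0.03, -0.03 and 0 for all transcripts. On day 0 siKlf5 cells had 52.0% of the control level of Twist2 and 66.7% of that of Id2, both with counting intervals below 0 (-1.53 to -0.38 and -1.11 to -0.07 on the log2 scale). Tcf12 was at 75.2% (interval -0.64 to -0.19). The day 0 counting intervals of Id1, Id3, Tcf3, Tcf4 and Msc took in 0.

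Id3 and Tcf4 were above control on the 3 later days. Id3 stood at 190.2% of control on day 1, 158% on day 2 and 139% on day 3, after 77.6% on day 0. Its counting interval lay above 0 on day 1 (0.0020 to 1.91) and day 2 (0.10 to 1.21) and took in 0 on day 3 (-0.16 to 1.12). Tcf4 stood at 105%, 139.5%, 122% and 149% of control on days 0 to 3, with intervals above 0 on days 1, 2 and 3. Its day 3 interval, 0.37 to 0.78, was the farthest from 0 of its 4 intervals.

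Twist2 crossed from below to above control. The log2 ratio began at -0.94 and reached 0.33, 0.26 and 1.03 by days 1, 2 and 3, and siKlf5 cells ended with 205% of the control level (interval 0.02 to 2.11). The siRNA difference of Twist2 changed by 0.59 ± 0.14 per day (unadjusted p = 0.00351), which did not pass over all transcripts (limma adjusted p = 0.794), and without day 0 the slope was 0.35 per day (adjusted p = 0.688). No transcript of the 14312 passed that test of change with day, and 694 had an unadjusted p under 0.05. Among the 9 HLH genes Twist2 alone had an unadjusted p under 0.05 in it.

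Past 1.5-fold between the siRNAs were 2 HLH genes on day 0 (Id4 higher and Twist2 lower), 1 on day 1 and 1 on day 2 (Id3 higher both times) and 3 on day 3 (Twist2 higher, Id2 and Id4 lower). Among all transcripts, 9.22%, 16.4%, 7.69% and 10.7% were past 1.5-fold higher and 11.1%, 11.0%, 13.0% and 12.5% lower on days 0, 1, 2 and 3. The Id4 entries rest on 16 reads against 7 on day 0 and on 0 against 12 on day 3. Id2 lay close to the limit, at 66.4% of control on day 3, and was not past it with a pseudocount of 1 or with upper-quartile scaling.

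**Figure D4:**
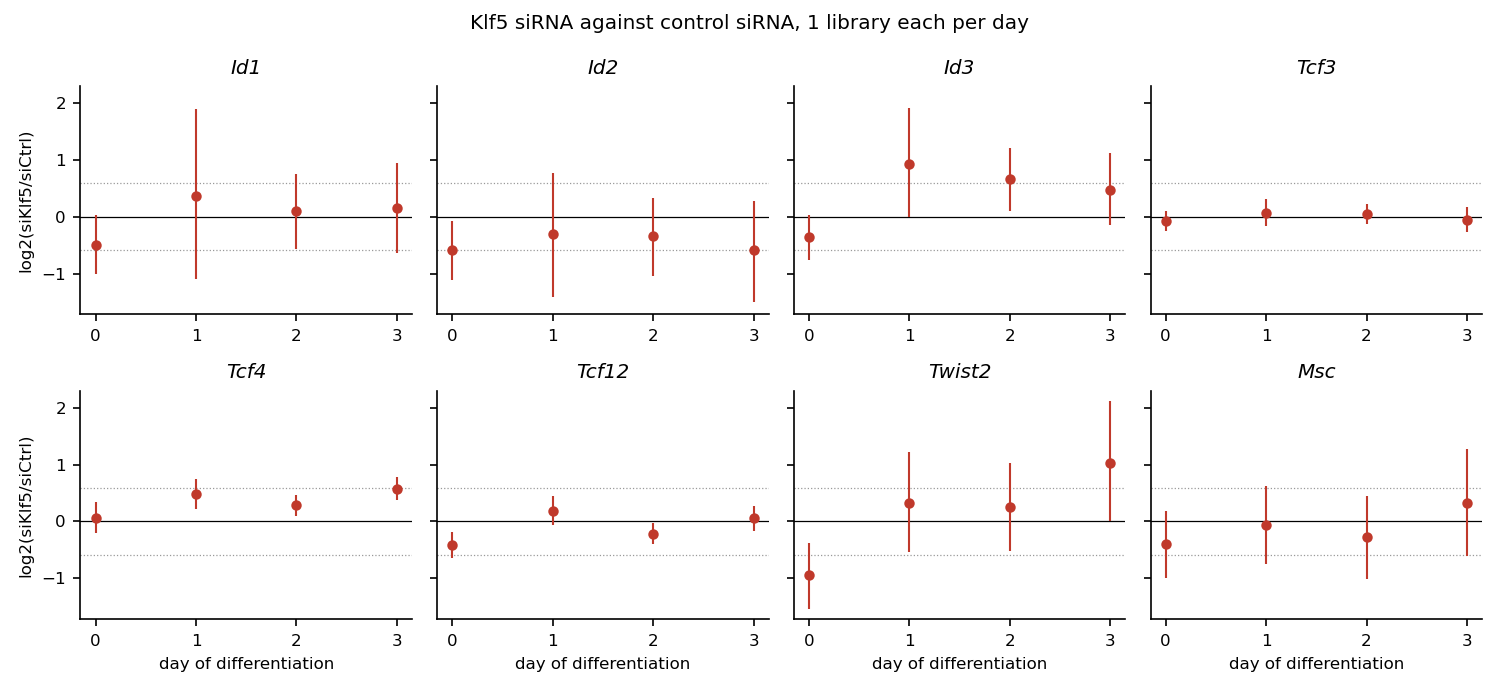
Log2 ratio of siKlf5 to siCtrl (vertical axis) by day of differentiation for 8 HLH genes, with 95% intervals for counting error only, 1 library per siRNA and day, and dotted lines at 1.5-fold. Id2 was below 0 and Tcf4 above 0 on all 4 days, and Twist2 went from -0.94 on day 0 to 1.03 on day 3.

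Across the 8 libraries the members followed one another in part, with Pearson r of log2 levels given as a description. Id1 and Id3 had r = 0.90, Tcf3 and Twist2 r = 0.87, Twist2 and Msc r = 0.85, and Id2 and Tcf4 r = -0.93. The 8 libraries share the same days and siRNAs, and the parts of r that follow each were not separated. The transcripts most like each member, among 11339 with a mean of at least 10 FPKM, were Simc1 and Polh for Id1 (r = 0.99 and 0.98), Gm5801 and Topors for Id2 (0.98 and 0.98), and Trap1 and C1qbp for Id3 (0.98 and 0.98). Tcf3 was most like Fhod1 and Abcc4 (0.99 and 0.99), Tcf4 most like the fibronectin gene Fn1 and Chd3 (0.97 and 0.97), and Tcf12 most like Nckap5l and Zc4h2 (0.93 and 0.92). Twist2 was most like Efemp2 and Sac3d1 (0.97 and 0.97), and Msc most like Paqr8 and Hif1a (0.99 and 0.99).

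The partners of the E proteins and the genes of the BMP pathway were read from the same fits. Of the 4 myogenic bHLH factors, which dimerise with E proteins, Myog alone passed, higher on days 1, 2 and 3 by 2.10, 2.26 and 2.17 on the log2 scale (adjusted p = 9.16e-05, 3.24e-05 and 3.07e-05), where 6.82%, 11.5% and 12.8% of all transcripts were called higher. Myod1 had a day 3 change of 0.28 ± 0.13 that did not pass. Myog went from 479 to 2293 FPKM between days 0 and 3 in siCtrl cells and from 328 to 1386 FPKM in siKlf5 cells, while the Id sum went the other way.

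Several genes for extracellular BMP antagonists rose after day 0, and whether this bears on the Id levels was not tested. Of the 11 tested (of 16 listed), 5 rose by day 3 and none fell, with a list median of 0.80 where all transcripts had -0.09 and 12.8% of them were called higher and 17.6% lower. They were follistatin (Fst, 6.34 ± 0.47, adjusted p = 6.95e-05), chordin (Chrd, 2.80 ± 0.27, adjusted p = 0.000232), Dand5 (1.57 ± 0.47, adjusted p = 0.0389), Fstl1 (0.80 ± 0.15, adjusted p = 0.00591) and Nbl1 (0.62 ± 0.11, adjusted p = 0.00455). Fst stood at 2.39, 37.6, 213 and 379 FPKM in siCtrl cells and at 1.97, 39.1, 132 and 89.4 FPKM in siKlf5 cells. The noggin gene Nog did not pass on any day.

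Of the 9 tested BMP receptor and co-receptor genes, 3 rose by day 3 and none fell, against 12.8% higher and 17.6% lower among all transcripts, and all 3 were from the repulsive guidance family of co-receptors. These were Hfe2, the hemojuvelin gene (4.58 ± 0.16, adjusted p = 2.19e-06), Rgma (2.00 ± 0.18, adjusted p = 0.000201) and Rgmb (1.17 ± 0.19, adjusted p = 0.00277). Of the 10 tested Smad and Smad-regulating genes, 1 fell and none rose on day 3, the inhibitory Smad gene Smad7 (-1.15 ± 0.32, adjusted p = 0.0285). With 17.6% of all transcripts called lower, that count was no larger than the background. Smad7 stood at 52.4, 23.6, 20.9 and 16.8 FPKM in siCtrl cells and at 52.6, 28.9, 29.9 and 32.9 FPKM in siKlf5 cells. The list of BMP ligands also holds Bmp1, the gene of a procollagen protease and not of a ligand. Of its 4 tested genes, Gdf5 alone passed, higher on days 1, 2 and 3. Among all transcripts, 6.82%, 11.5% and 12.8% were called higher on those days. Gdf5 was listed at 0, 7.09, 36.7 and 142 FPKM in siCtrl cells and at 1.45, 6.81, 34.3 and 64.3 FPKM in siKlf5 cells. No gene of these lists passed for the siRNA difference or for its change with day.

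**Figure D5:**
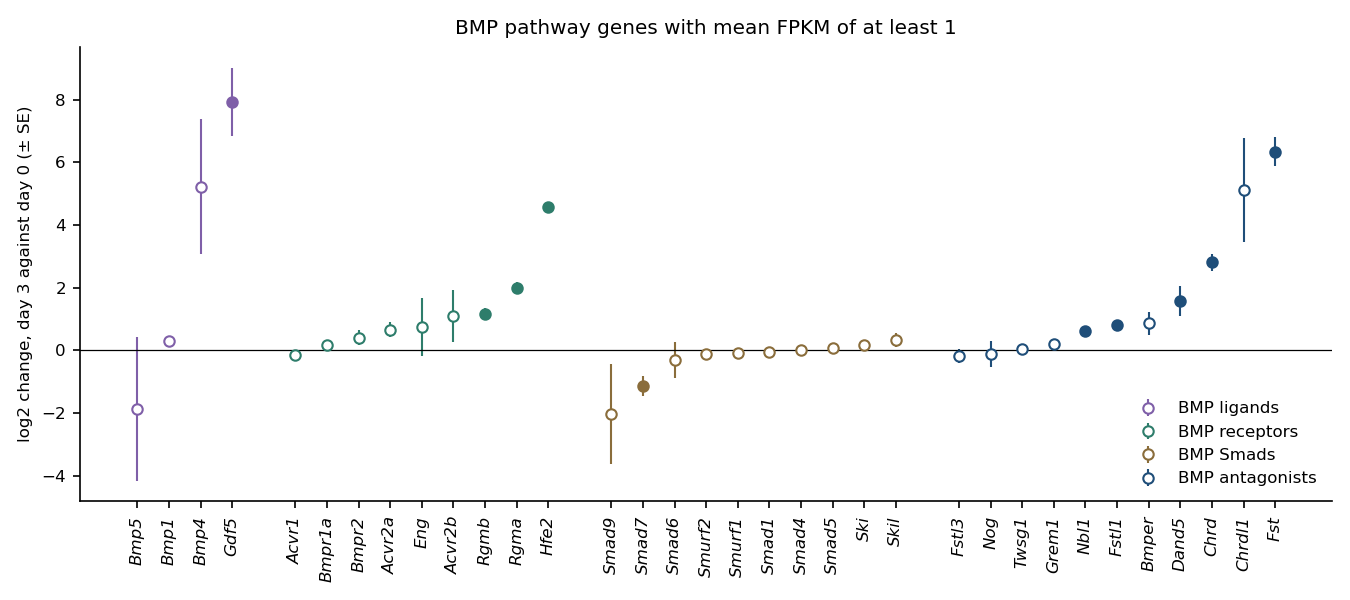
Log2 change from day 0 to day 3 (vertical axis, ± SE from limma) for the tested genes of 4 BMP pathway lists, filled where the adjusted p was under 0.05. Among the antagonists 5 of 11 were filled, all above 0, with Fst at 6.34, and among the Smad genes Smad7 alone was filled, at -1.15.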

How the data were processed

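The authors aligned the RNA-seq reads with STAR and quantified exons with HOMER in mm9. Per the file headers, up to 3 reads per position were kept, both strands were counted, each library was scaled to a total of 10000000 and isoforms were condensed to 1 transcript per gene. The deposited values are labelled FPKM but are per 10000000 reads, not on the usual per-million scale, and the 1 FPKM filter has that unit too. A further 8 deposited columns of log2 values between samples were not used. All values checked were whole multiples (within 0.1) of 1 read, which gave read numbers and depths of 7850497 to 20301506. Transcripts with 6 reads outnumbered those with 5 by 2.83 to 10.0 times, so reads were divided by 6 for the exact (Clopper-Pearson) 95% counting intervals.

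From there, log2(FPKM + 0.1) of 14312 transcripts with a mean of at least 1 FPKM was fitted in limma 3.58.1 (R 4.3.3, trended prior), with Benjamini-Hochberg adjustment over all of them and a threshold of 0.05. The models were the siRNA difference with day as a block, each day against day 0 with the siRNA as a covariate, and the siRNA difference by numeric day. Fold changes are on the log2(FPKM + 0.1) scale and understate changes of low genes. With 1 library per group, the error is the disagreement between days or between siRNAs, pulled by the prior toward that of transcripts at similar levels. Residual degrees of freedom were 3, and 7.91 in total with the prior (2 and 8.02 for the change with day). The p-values therefore measure no spread between replicate cultures. Only the siRNA difference was run on simulated data, drawn around a shared course for both siRNAs apart from set changes. The simulated spread was counting noise and a small extra spread per library, so that run does not check the error of the real fits. Named genes were all 10 HLH genes, the 2 transcripts most like each expressed one (minimum exon length 200), genes of the fixed lists that passed a test, and Klf5; Nog and Myod1 were added after their values were seen. The members and lists were chosen with earlier results of these data known. Alternatives were other pseudocounts, filters, scalings, no block, a robust prior and each day left out. The 6 ChIP samples were not analysed here.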

Additional observations from a re-analysis of the deposited data

How the results depend on the processing

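Of 427 values for single HLH genes under the alternatives, 379 kept direction and side of the threshold, 30 lost the call, 1 gained it (Id4 on day 2 without day 3) and 17 changed sign, none of the latter a call. Called HLH genes went from 4 to 2 (day 1), from 7 to 2 (day 2) and from 7 to 2 (day 3) with no filter, when 24016 transcripts entered the fit. Calls over all transcripts fell as well, to 653, 1206 and 2161. Without each later day in turn, 2 to 2 HLH genes passed on day 1 and 4 to 5 on day 2. Over all transcripts, 1001 to 1176 then passed on day 1 and 2008 to 3107 on day 2. The Twist2 call on day 2 was also lost under upper-quartile scaling (adjusted p = 0.0528), median-ratio centring (0.0502) and a robust prior (0.0629), and the Tcf4 calls on days 1 and 2 without the siRNA term (0.0849 and 0.104). Id1 and Id3 lost the day 2 call without day 3 (0.0502 and 0.0663), and Id3 the day 3 call without day 2 (0.0549). These causes were not tested. Scaling moved the median of all transcripts by 0.12 on day 1 (upper quartile) and 0.10 on day 3 (median ratio), less elsewhere.

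Genes past 1.5-fold went from 2 to 1 on day 0 under a 5 FPKM filter, from 1 to 2 on day 2 with no filter (Twist1 added), and to 1, 0 and 0 on days 0, 1 and 2 at a 2-fold limit. Within unchanged or similar counts, Id2 left the day 3 genes with a pseudocount of 1 and under upper-quartile scaling, where Tcf4 entered, and Id2 joined the day 0 genes under median-ratio centring.

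Signs changed in these uncalled values. For the siRNA difference, Tcf3 was 0.0109 with upper-quartile scaling, and without each day in turn Id1 ran from -0.082 to 0.20, Id4 from -1.73 to 0.43, Tcf3 from -0.025 to 0.021, Tcf12 from -0.19 to 0.0074 and Twist2 from -0.12 to 0.54. For the change per day, Id2 was 0.0133 (upper quartile) and 0.0094 (median ratio), and without each day Id1 ran from -0.11 to 0.30, Id2 from -0.14 to 0.12, Id3 from -0.23 to 0.51, Tcf3 from -0.063 to 0.059 and Tcf12 from -0.066 to 0.15. The siRNA difference is paired by day in the model itself, and without that block again 0 of the HLH genes passed.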

Other observations

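Among the 7 tested genes for Hes, Hey and Bhlhe factors, 4 rose and none fell by day 3, with a median of 0.69 where all transcripts had -0.09. Of all transcripts, 12.8% were called higher and 17.6% lower. The 4 genes that rose were Heyl (2.00 ± 0.15, adjusted p = 7.25e-05), Hes6 (1.29 ± 0.14, adjusted p = 0.000399), Bhlhe40 (0.88 ± 0.13, adjusted p = 0.00187) and Hes1 (0.44 ± 0.13, adjusted p = 0.0415). Heyl stood at 38.9, 195.8, 167 and 149 FPKM in siCtrl cells and at 41.9, 287, 193 and 175 FPKM in siKlf5 cells, higher on each later day than on day 0.

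Among all transcripts, 6.82%, 11.5% and 12.8% were called higher on days 1, 2 and 3. Single calls in the short lists that follow are therefore not read as results about those lists. Of the 4 tested zinc-finger E-box repressors, Zeb1 rose on days 1, 2 and 3 (0.71, 0.86 and 0.98) and Snai1 on day 2 (0.61, adjusted p = 0.0205). Cbfa2t3, 1 of 3 corepressor genes of E proteins, rose by 3.58 ± 0.46 by day 3 (adjusted p = 0.000958), from 2.88 to 59.3 FPKM in siCtrl cells and from 3.91 to 28.7 FPKM in siKlf5 cells. Of 26 bHLH factors of other tissues, 4 had a mean of at least 1 FPKM, and the tendon factor Scx rose by 1.26 ± 0.17 by day 3 (adjusted p = 0.00123), from 374 to 771 FPKM in siCtrl cells and from 355 to 992 FPKM in siKlf5 cells.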
